A study of Mus musculus with 39 samples.

Results

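The 10 genes described here form the core of the circadian clock and its first output. The list holds the activators Arntl, Clock and Npas2, the repressors Per1, Per2, Per3, Cry1, Nr1d1 and Nr1d2, and the clock-controlled factor Dbp. Members were the genes whose symbol stood in the gene name field of the scanner files, 10 of 29411 gene names on the array. They had 16 probes, 6 genes with 1 probe and 4 (Clock, Cry1, Per2 and Nr1d1) with more, and the probe with the highest mean signal stood for the gene.

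RNA of epididymal adipose tissue, a visceral fat pad of the male mouse, was measured on 39 one-colour Agilent arrays. The mice were C57BL/6J, weaned at 3 to 4 weeks of age and kept on a 12:12 light and dark cycle with free access to food. LFC mice ate a low fat control diet (10% of calories from fat) and gave 11 arrays, HFC mice a high fat, high sucrose diet (60%) and gave 10. HF5, HF20 and HF75 mice ate the HFC diet plus KAL-1, a formulation from plants, at 5, 20 or 75 µg, and gave 6 arrays each, at weeks 3, 6, 9, 12, 15 and 18. LFC had arrays also at days 1, 6, 10 and 14 and at week 0, and HFC at days 6, 10 and 14 and at week 0. Per the study's methods, weeks were counted from day 14. Each diet has a single array at each time point in the data used here, and whether several mice were pooled on it is not stated in the labels. Time points therefore stand in for replicates of a diet, and p-values measure only the spread between these arrays, which may be technical. The hour of the day at which the mice were killed is not given in the sources used here.

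In the clock, ARNTL (also called BMAL1) pairs with CLOCK or NPAS2 and activates genes that carry an E-box, among them the Per and Cry genes, Nr1d1, Nr1d2 and Dbp. PER and CRY proteins then inhibit this pair, and NR1D1 and NR1D2 (REV-ERB alpha and beta) repress Arntl through ROR elements, which gives a daily loop. In mouse peripheral tissues, fat included, Arntl and Dbp mRNA therefore peak at nearly opposite times of the day: Arntl around the end of the night, Dbp in the later part of the light phase. DBP, with its relatives TEF and HLF, activates genes through D-boxes, which NFIL3 represses.

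The promoters of the members are shown where one of 4 clock motifs was found, because these elements define the arms of the loop that the measurements follow. The motifs searched on both strands were the E-box CACGTG, the D-box TTATGTAA or TTACGTAA, the ROR element core TAGGTCA or TGGGTCA, and the cAMP response element TGACGTCA. CACGTG, TTACGTAA and TGACGTCA read the same on both strands, and no motif found here overlapped another. RefSeq (build GRCm38.p6) held 13 promoter entries of 300 bases for 9 of the 10 members (Per2 had none), each 250 bases before and 50 after a transcription start. A motif was found in 4 entries, of 4 members. Capitals mark the motif.
Arntl, chr7:113207261-113207560, plus strand, ROR element core at positions 31 to 37 after the start: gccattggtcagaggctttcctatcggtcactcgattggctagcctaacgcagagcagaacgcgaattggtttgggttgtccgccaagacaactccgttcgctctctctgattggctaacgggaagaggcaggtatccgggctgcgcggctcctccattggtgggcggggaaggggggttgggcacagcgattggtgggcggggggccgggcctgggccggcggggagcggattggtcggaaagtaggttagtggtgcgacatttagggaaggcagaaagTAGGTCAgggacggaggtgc
Per1, chr11:69098699-69098998, plus strand, E-box at positions -166 to -161: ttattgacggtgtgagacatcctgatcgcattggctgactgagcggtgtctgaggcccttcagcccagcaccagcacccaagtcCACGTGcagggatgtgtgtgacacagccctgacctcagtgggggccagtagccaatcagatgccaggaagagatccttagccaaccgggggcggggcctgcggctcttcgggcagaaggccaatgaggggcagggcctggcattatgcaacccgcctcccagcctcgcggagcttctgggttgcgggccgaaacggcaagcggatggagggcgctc
Cry1, chr10:85185005-85185304, minus strand, E-box at positions -60 to -55: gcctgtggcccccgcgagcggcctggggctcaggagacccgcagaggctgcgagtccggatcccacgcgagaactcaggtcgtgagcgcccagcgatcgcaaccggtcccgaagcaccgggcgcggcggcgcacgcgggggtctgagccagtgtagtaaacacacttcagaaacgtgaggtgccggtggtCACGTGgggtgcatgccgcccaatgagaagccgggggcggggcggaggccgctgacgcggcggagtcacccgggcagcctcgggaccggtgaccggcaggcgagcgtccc
Per3, chr4:151044616-151044915, minus strand, D-boxes at positions -205 to -198 and -158 to -151: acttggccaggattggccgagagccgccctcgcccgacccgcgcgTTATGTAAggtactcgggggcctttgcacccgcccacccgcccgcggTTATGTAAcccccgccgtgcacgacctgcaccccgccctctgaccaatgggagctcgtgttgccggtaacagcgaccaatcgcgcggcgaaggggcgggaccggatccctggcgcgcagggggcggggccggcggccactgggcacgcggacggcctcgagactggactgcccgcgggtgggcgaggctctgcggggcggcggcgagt
Of all 32851 promoter entries of the same length, 7.15% held an E-box, 1.06% a D-box, 6.45% a ROR element core and 1.79% a cAMP response element. These matches describe letters in the sequence, and the arrays did not measure binding.

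Adipocyte markers checked the tissue: 9 of 9 (Adipoq, Fabp4 and others) were well above background on all 39 arrays. Of the visceral markers Wt1, Upk3b, Msln and Tcf21, 1 was well above background on every array. Their median level was -4.20, -5.24, -6.87 and -7.83 on the week 6 LFC, HFC, HF5 and HF75 arrays, where the subcutaneous markers Tbx15 and Shox2 were high (-2.14, -2.46, -3.37 and -2.25). The week 6 HF20 array had -0.71 and -9.0. The LFC week 3 array (97.1% of spots well above background, 16431 outlier spots) and the HFC week 12 array (94.5%, 10531) stood apart from the other 37, which had 53.7% to 79.6% and 21 to 387. Outlier spots were left out, which removed Arntl, Npas2, Per1 and Per2 on the LFC week 3 array and Npas2 on the HFC week 12 array. Both arrays stayed in the fits and were left out of the correlations, and values without them are given where a call or a sign changed. Precision is limited by how few arrays there are.

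All levels below are normalised log2 signals, in which 0 is the 75th percentile of the array and a step of 1 is a 2-fold change. Levels of different genes come from different probes and are not compared. In a tissue sample, a shift in cell types and a shift in RNA per cell cannot be told apart.

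Arntl, the activator on which the whole loop depends, ranged from -4.54 (HF5 week 9) to 0.20 (HF20 week 6) over the 37 arrays, a 26.8-fold span. Its lowest, median and highest levels were -2.54, -1.65 and -0.75 in LFC, -3.01, -1.46 and -0.24 in HFC, -4.54, -1.50 and -0.23 in HF5, -3.84, -1.21 and 0.20 in HF20, and -3.97, -2.16 and -1.26 in HF75. The 5 diets overlapped over most of this span. The LFC and HFC values include arrays before week 3, which HF5, HF20 and HF75 lack. The Arntl probe was well above background on 37 of 39 arrays. On the LFC week 3 array its spot was an outlier and gave no value. In HF5 the probe was above background on 5 of 6 arrays. HF5 week 9, with the lowest Arntl, was the dimmest array, with a 75th percentile intensity of 119.5 (next lowest 347.5). It also had the fewest spots well above background (53.7%). Its median Spearman rho with the other arrays (0.90) was the lowest of the 37.

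Dbp, the output factor, ranged from 1.89 (HFC day 6) to 6.39 (HF5 week 9), a 22.6-fold span. Its lowest, median and highest levels were 2.67, 4.11 and 5.45 in LFC, 1.89, 4.27 and 5.35 in HFC, 1.92, 4.25 and 6.39 in HF5, 2.59, 3.94 and 5.69 in HF20, and 3.97, 5.31 and 5.71 in HF75. The Dbp medians ran in the order HF20, LFC, HF5, HFC and HF75, and no neighbours in this order were separated beyond their spread. This order sets unlike time points side by side, because only LFC and HFC have arrays before week 3. In HFC, Dbp was 1.89 to 3.79 before week 3 and 4.11 to 5.35 from week 3 on. The lowest LFC value came from the LFC week 3 array, which stood apart. The Dbp probe was well above background on all 39 arrays.

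The partners of ARNTL were less variable or dim. Clock ranged from -0.35 to 2.53 over the 37 arrays, a 7.34-fold span, the smallest of the 10 members. Npas2, which can replace CLOCK, was well above background on 15 of 39 arrays (3 of 11 LFC, 5 of 10 HFC, 2 of 6 HF5, 4 of 6 HF20 and 1 of 6 HF75), so its values rest largely on signals close to background. Clock had other probes, whose Pearson r with the brightest over the 37 arrays was 0.57 and 0.34.

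Among the repressors, over the same 37 arrays, Per1 ranged from -0.11 (HFC day 6) to 3.74 (HF5 week 12) and Per2 from -3.20 (HFC day 6) to 0.77 (HF5 week 15). Nr1d1 ranged from -2.06 (HFC day 10) to 2.21 (HFC week 18) and Nr1d2 from -1.25 (HF20 week 6) to 3.24 (HF75 week 15). These are spans of 14.4-fold, 15.7-fold, 19.3-fold and 22.5-fold. Among these arrays the lowest values of Per1, Per2 and Nr1d1 lay on the HFC arrays of days 6 and 10. On the LFC arrays of days 6 and 10, Per2 was nearly as low at day 6 (-3.08 and -2.28). Per1 (1.24 and 2.34) and Nr1d1 (0.34 and 1.49) were higher on those LFC arrays than in HFC. Per3 ranged from -8.35 to -3.30 and Cry1 from -7.28 to -2.64. The LFC week 3 array, 1 of the 2 that stood apart, lay outside these ranges, with -3.07 for Nr1d1, -1.48 for Per3 and -1.90 for Cry1. The Per3 and Cry1 probes were above background on 33 and 36 of 39 arrays. The second probe of Per2 followed the brightest weakly (r = 0.14), while that of Cry1 (r = 0.69) and that of Nr1d1 (r = 0.70) followed it more closely. A further, dimmer probe of Nr1d1 had an r of 0.42 with the brightest.

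**Figure D1:**
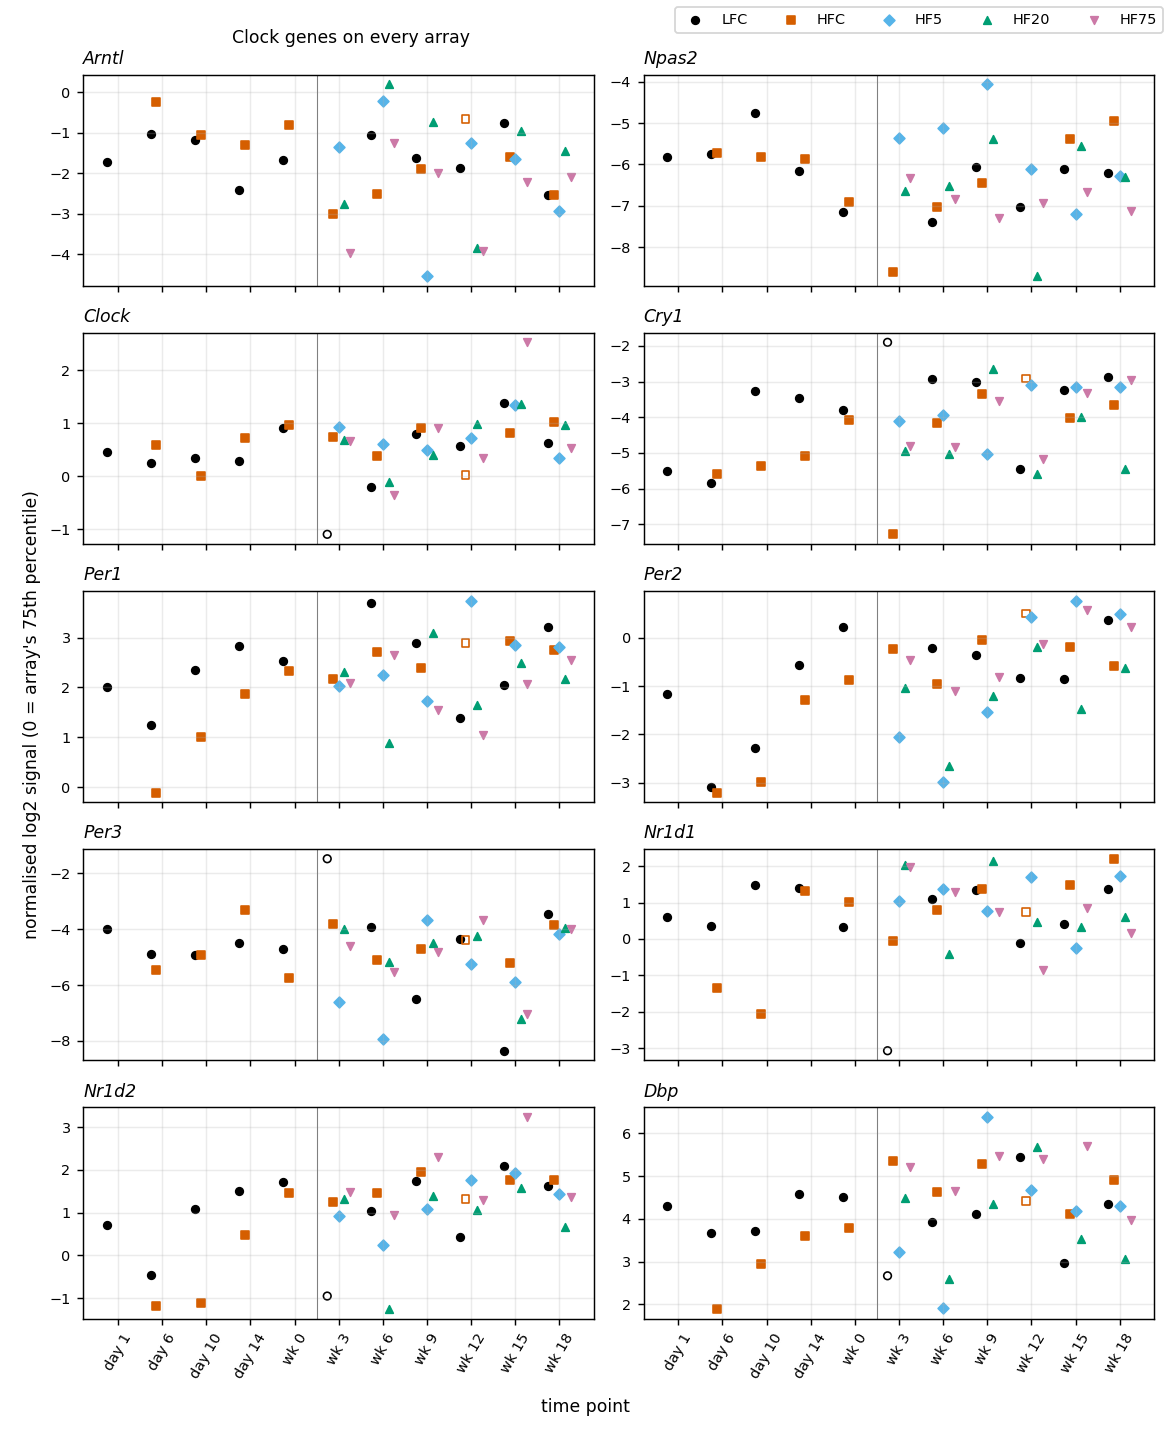
Normalised log2 signal (0 is the array's 75th percentile) of each clock gene against time point, 1 symbol per array, shape and colour by diet. The 2 arrays that stood apart (LFC week 3, HFC week 12) have open symbols, and the vertical line parts days 1 to 14 and week 0 from weeks 3 to 18. Arntl spans -4.54 to 0.20 and Dbp 1.89 to 6.39, and the ranges of the 5 diets overlap. All 5 diets have arrays only at weeks 3 to 18.

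The first question was whether Arntl and the other members moved together from array to array, as parts of 1 loop. Dbp was high where Arntl was low: on the HF5 week 9 array Dbp was 6.39 and Arntl -4.54, on HF20 week 12 they were 5.69 and -3.84, on HF75 week 12 5.41 and -3.92, and on HF75 week 3 5.22 and -3.97. At the other end, HFC day 6 had a Dbp of 1.89 and an Arntl of -0.24, HF5 week 6 had 1.92 and -0.23, and HF20 week 6 had 2.59 and 0.20. Pearson's r between Dbp and Arntl was -0.80 and Spearman's rho -0.78 over 37 arrays, with a permutation p of 1e-05 for each, the smallest that 100000 resamples can give, and 9e-05 after Benjamini-Hochberg adjustment over the 9 members set against Arntl. Without the 2 arrays farthest from the median of Arntl, HF5 week 9 among them, r between Dbp and Arntl was -0.77. The relation was as large within time points: r of the deviations from the time point means was -0.78 over 36 arrays (adjusted permutation p = 9e-05, resampled within time points). Arrays of 1 time point were, with the exceptions of weeks 3 and 6, scanned on 1 date.

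Within HFC, r between Dbp and Arntl was -0.89 over 9 arrays (rho -0.90), with an exact two-sided permutation p of 0.0012 and an adjusted p of 0.011. Within LFC it was -0.71 over 10 arrays (permutation p = 0.020, adjusted p = 0.18), and Spearman's rho was -0.88 (adjusted permutation p = 0.015). Without the 5 week 6 arrays, 4 of which had high subcutaneous and low visceral markers, r between Dbp and Arntl was -0.77 (adjusted permutation p = 9e-05). The relation also had an r of -0.79 after normexp background correction, -0.76 after quantile normalisation and -0.73 after median scaling.

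**Figure D2:**
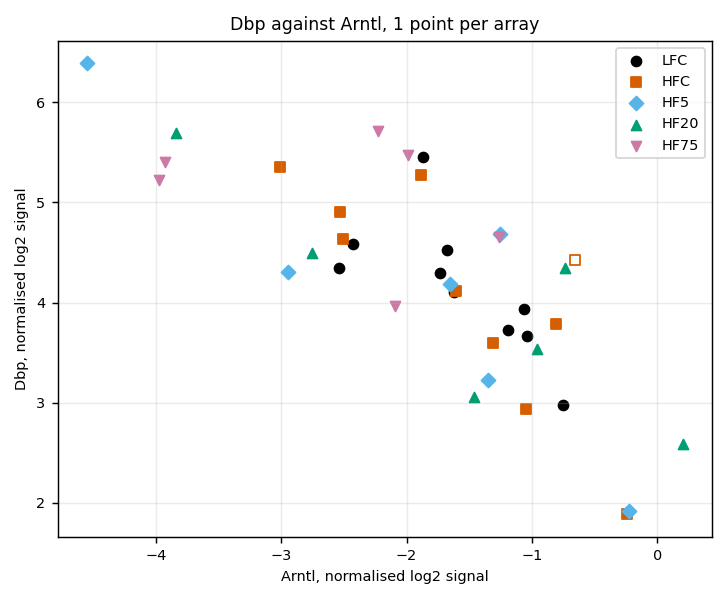
Dbp against Arntl, both as normalised log2 signal, 1 point per array, shape and colour by diet. The open symbol is the HFC week 12 array. Points run from HFC day 6 (Arntl -0.24, Dbp 1.89) to HF5 week 9 (Arntl -4.54, Dbp 6.39) (r = -0.80 over 37 arrays, without the open symbol).

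Of the 9 members set against Arntl, 4 had an adjusted permutation p under 0.05, all with a negative r: Dbp, Per3 (r = -0.50, rho = -0.58, adjusted p = 0.0072), Per2 (r = -0.49, rho = -0.54, adjusted p = 0.0072) and Nr1d2 (r = -0.40, rho = -0.32, adjusted p = 0.034). The adjustment covered these 9 members only. Among 17484 other gene names, 0.543% had an r under -0.5 with Arntl. In that search an r of -0.49 (Ciart) ranked 111 from the lowest and one of -0.39 (Csnk1e) ranked 609. Without the 2 arrays farthest from the Arntl median, r was -0.50 for Per3, -0.61 for Per2 and -0.45 for Nr1d2. Within time points r was -0.47, -0.38 and -0.35, and the adjusted p were 0.096, 0.11 and 0.11. The remaining 5 had r of 0.21 (Npas2), 0.18 (Cry1), -0.05 (Per1), -0.10 (Clock) and -0.16 (Nr1d1), with adjusted permutation p of 0.36 to 0.76. For Npas2, r with Arntl was 0.50 without the 2 farthest arrays. The sign of the relation of Arntl with Per3, a dim probe, turned with normexp correction (r = 0.30, adjusted permutation p = 0.10). Nr1d2 no longer passed after quantile normalisation (r = -0.38, adjusted permutation p = 0.0505) or median scaling (r = -0.35, adjusted permutation p = 0.078). With normexp, Npas2 (r = 0.51) and Cry1 (r = 0.45) passed with a positive r.

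Among all 45 pairs of members, 10 had an r of 0.5 or more and 2 had an r of -0.5 or less over the 37 arrays, given here as a description. The share over pairs of all genes was not computed. The counts therefore do not show whether members ran together more than other genes. Per2 and Nr1d2 ran together most closely (r = 0.79, 0.65 within time points). Per1 ran with Nr1d1 (r = 0.69), Cry1 (0.66), Nr1d2 (0.62) and Per2 (0.61), but its r with Dbp was 0.20. Dbp ran with Per2 (r = 0.60) and Nr1d2 (0.59). The members thus lay along more than 1 direction: Arntl against Dbp, and Per1 with Cry1 and Nr1d1.

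**Figure D3:**
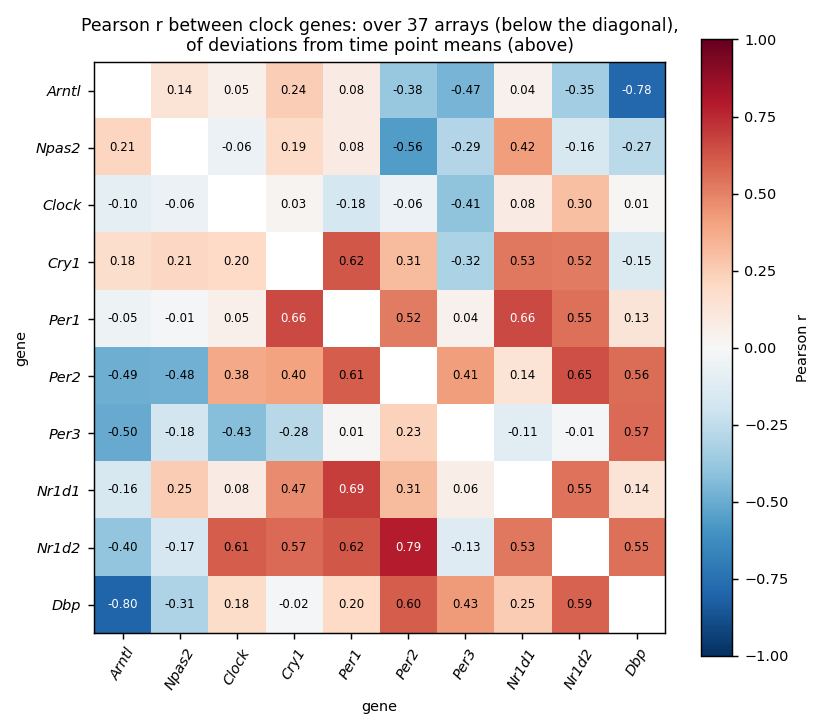
Pearson r between the 10 clock genes as a heat map, over 37 arrays below the diagonal and for deviations from the time point means above it, red positive and blue negative. Arntl and Dbp stand out in blue on both sides of the diagonal (-0.80 and -0.78), and all pairs among Per1, Cry1, Nr1d1 and Nr1d2 are red.

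A search over 17484 gene names, members left out, gave the genes whose levels were most like those of Dbp and Arntl over the 37 arrays. The 3 names most like Dbp were Hlf (r = 0.81), Gm129 (0.71), now named Ciart in RefSeq, and Tef (0.70), followed by Cys1 (0.63) and Gm2771 (0.62). HLF and TEF are the D-box factors most closely related to DBP, and CIART represses the ARNTL pair. Within time points r with Dbp was 0.82 for Hlf, 0.74 for Ciart and 0.77 for Tef. Of all names searched, 0.229% had an r over 0.5 with Dbp.

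The same search against Arntl put Tef (r = -0.74) and Hlf (-0.70) at the lowest end, before Dzip3 (-0.66), Wdr45 (-0.66) and Nfia (-0.65). Within time points r with Arntl was -0.68 for Tef and -0.73 for Hlf. At the highest end stood A630005I04Rik (0.75), Wdhd1 (0.71), Syngr2 (0.68), Dcaf7 (0.66) and S100a16 (0.66), none of which is on the list of clock genes used here. Of all names, 0.543% had an r under -0.5 with Arntl.

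Tef ranged from -0.06 to 2.73, Hlf from -3.43 to 0.81 and Ciart from -7.16 to -0.26 over the 37 arrays. Not every clock gene shared the pattern: r with Dbp was -0.01 for Nfil3, which opposes DBP at D-boxes, -0.22 for Cry2, 0.15 for Rora and 0.12 for Usp2, a clock-controlled protease.

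To place each array on the axis from high Arntl to high Dbp, the median over the 37 arrays was subtracted from each gene, and Arntl was then subtracted from Dbp. This index is a score of the members themselves and was given no test. It ran from -3.84 (HFC day 6), -3.82 (HF5 week 6) and -3.58 (HF20 week 6) to 3.23 (HF75 week 3), 3.37 (HF75 week 12), 3.57 (HF20 week 12) and 4.97 (HF5 week 9). On the HFC week 12 array it was -0.88, and the LFC week 3 array gave none because its Arntl spot was an outlier.

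The index differed as much between arrays of the same time point as between time points. Over 36 arrays of 10 time points, the SD within time points was 1.80 and the SD of the time point means 1.46, and 43.0% of the variance lay between time points. At week 9 the index was -0.89 in HF20, -0.24 in LFC, 1.2 in HFC, 1.5 in HF75 and 4.97 in HF5, the dimmest array. At week 6 it was -3.82 in HF5, -3.58 in HF20, -0.97 in LFC, -0.05 in HF75 and 1.17 in HFC. HF5 was highest at week 9 and lowest at week 6. At days 6 and 10 all 4 arrays lay below 0: -3.84 and -1.98 in HFC, -1.26 and -1.05 in LFC.

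Diet means of the index were -0.21 ± 1.16 (SD, n = 10) in LFC, -0.25 ± 2.0 (SD, n = 9) in HFC, 0.15 ± 2.92 (SD, n = 6) in HF5, -0.42 ± 2.50 (SD, n = 6) in HF20 and 1.68 ± 1.47 (SD, n = 6) in HF75. The LFC and HFC means include arrays before week 3, which HF5, HF20 and HF75 lack, so they set unlike time points side by side. In HFC the index was -3.84, -1.98, -1.06 and -1.37 at days 6, 10 and 14 and week 0. From week 3 on, without the week 12 array, the HFC index ran from -0.25 to 2.40. In LFC it ran from -1.26 to 1.04 before week 3 and from -2.24 to 1.35 later. HF75 ran from -0.05 to 3.37, inside the range of HF5 (-3.82 to 4.97) and overlapping HFC from week 3 on. With Nr1d1 in place of Dbp the index had an r of 0.80 with the one above and the same sign on 26 of 37 arrays. Both versions subtract the same Arntl values, so part of this r is built in. Nr1d1 itself had an r of 0.25 with Dbp (0.14 within time points).

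**Figure D4:**
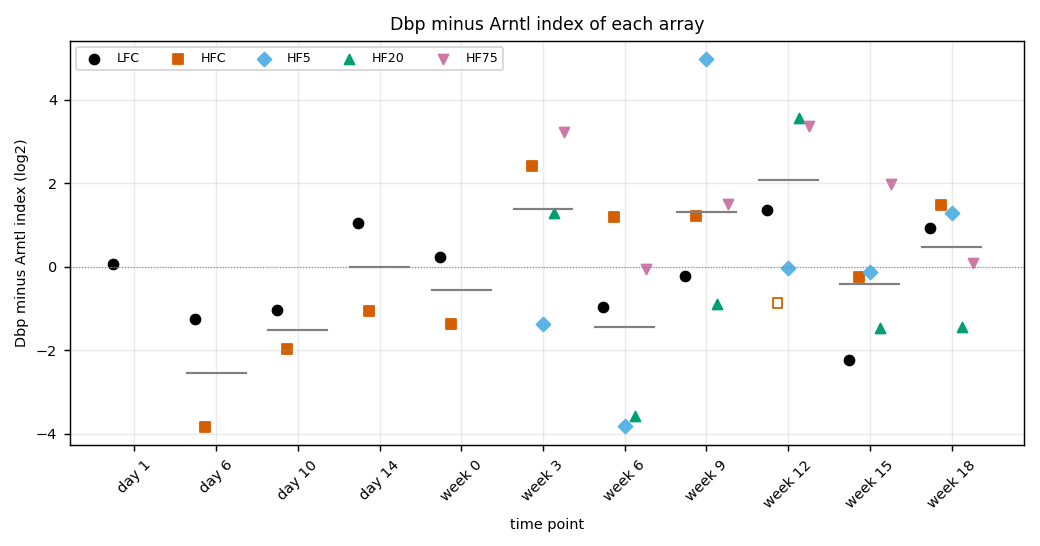
Dbp minus Arntl index (log2) of each array by time point, shape and colour by diet. Grey bars are means over the filled symbols of a time point, the open symbol is the HFC week 12 array, and the dotted line is 0. Values within 1 time point spread by up to 5.86 (week 9, where HF5 is the dimmest array), and the lowest mean is that of day 6 (-2.55).

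Whether the members differed among the 6 time points of weeks 3 to 18 was tested on 30 arrays with diet as a covariate. By limma's moderated F-test, 0 of 10 members passed an adjusted p of 0.05, where 10.7% of 31450 probes did. At an unadjusted p under 0.05 there were 5 members (32.2% of probes): Per3 (adjusted p = 0.054), Nr1d2 (0.067), Clock (0.070), Per2 (0.10) and Dbp (0.15). The share of members was near that of all probes. Mean levels ran from -6.74 (week 15) to -3.89 (week 18) for Per3, from 0.06 (week 6) to 1.49 (week 15) for Clock, from 0.49 (week 6) to 2.12 (week 15) for Nr1d2 and from 3.55 (week 6) to 5.31 (week 12) for Dbp. When the 2 arrays that stood apart were left out, or all of week 3, Clock, Per3 and Nr1d2 passed (adjusted p 0.023 to 0.033), 3 of 10 members where 23.1% and 18.4% of all probes passed. Time point and scan date ran together and cannot be told apart here. At week 6, the lowest point of Clock, Nr1d2 and Dbp, the LFC, HFC, HF5 and HF75 arrays had high subcutaneous and low visceral markers. The part of this in the week 6 means was not tested. Without week 6, 0 members passed, where 5.58% of 31729 probes did.

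Of 19 other clock genes fixed as a list (among them Cry2, Rora, Nfil3, Tef, Hlf, Bhlhe40, Ciart, Csnk1e, Usp2, Wee1 and Nampt), 18 were tested, all but the dim Rorb. Among the 6 time points 1 of 18 passed by the moderated F-test, where 10.7% of 31450 probes did: Nfil3 (F = 4.92, adjusted p = 0.039). Nfil3 averaged 0.44 ± 1.61 (SD, n = 4) at week 12 and 3.12 ± 0.37 (SD, n = 5) at week 15, without the HFC week 12 array. Its 4 arrays at week 12 ran from -1.19 to 2.63. On these arrays the median of the immediate early genes (Fos, Egr1, Junb and others) was -0.45 in LFC, 0.75 in HF20, 1.40 in HF75 and 5.96 in HF5. Their part in the Nfil3 result was not tested.

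The diet comparison asked whether the high fat, high sucrose diet changed the clock genes. Time point entered limma as a block. With it, 0 of 9 tested members passed for HFC against LFC over 10 time points, where 0% of 29168 probes did. No member was under an unadjusted p of 0.05 (0 of 9, against 3.05% of probes), and the methods' t-test, which the study set between control and treated values and which was run here on the paired HFC minus LFC differences over the time points, also gave 0 members, at p under 0.05 and after adjustment. Npas2 was not tested, being well above background on 7 of 20 arrays.

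Arntl averaged -1.56 ± 0.91 (SD, n = 10) in HFC and -1.57 ± 0.63 (SD, n = 9) in LFC, a difference of 0.18 ± 0.30 (SE) with a 95% interval of -0.48 to 0.83. Dbp averaged 4.09 ± 1.08 in HFC and 4.00 ± 0.81 in LFC (SD, n = 10 each), a difference of 0.09 ± 0.39 (SE; interval -0.77 to 0.95). With the 2 arrays that stood apart left out, the difference in Dbp was -0.09 (adjusted p = 0.94). Cry1 had the smallest p, with a difference of -0.98 ± 0.56 (SE; interval -2.19 to 0.24, adjusted p = 0.998), and was lower in HFC at 8 of 10 time points. At week 3, which holds an array that stood apart, Cry1 differed by -5.38, and the difference was -0.49 without week 3 and -0.86 without the 2 arrays (adjusted p = 0.71). The median difference over the 9 members was 0.06, beside 0.03 over all probes.

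Over weeks 3 to 18, 0 of 10 members passed for HFC against LFC (0% of 31450 probes), and 0 of 10 had an unadjusted p under 0.05 (2.31% of probes). Dbp was higher in HFC by 0.87 ± 0.50 (SE; interval -0.15 to 1.89) and at 5 of 6 weeks, as were Nr1d1 (0.92 ± 0.62) and Nr1d2 (0.59 ± 0.38). Without week 3 the differences were 0.51 for Dbp, 0.50 for Nr1d1 and 0.27 for Nr1d2, and without the 2 arrays that stood apart 0.88, 0.16 and 0.25. Of the other clock genes 0 of 18 passed, over 10 time points and over weeks 3 to 18. At an unadjusted p under 0.05 stood Usp2 (-0.54 ± 0.23, SE) over 10 time points and, among others, Tef (0.93 ± 0.42) over the weeks.

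The KAL-1 comparisons asked whether a dose changed these genes on the high fat diet. All 3 doses share the HFC arrays as control. For each dose, and for the 3 doses averaged, 0 of 10 members passed by limma, where 0% of 31450 probes did in each. At an unadjusted p under 0.05 there were 0 members for HF5 (3.42% of probes), 2 for HF20 (4.84%), 0 for HF75 (1.50%) and 0 for the averaged doses (1.75%).

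The 2 genes in HF20 were Per2 and Nr1d2. Per2 ran from -2.65 to -0.20 (median -1.12) in HF20, with a difference from HFC of -0.95 ± 0.43 (SE; interval -1.84 to -0.05, adjusted p = 0.78), and was lower at 6 of 6 weeks. Nr1d2 differed by -0.80 ± 0.38 (SE; interval -1.59 to -0.00, adjusted p = 0.78) and was lower at 5 of 6 weeks. At week 6 the paired arrays had unlike depot markers. The visceral and subcutaneous medians were -0.71 and -9.0 in HF20, and -5.24 and -2.46 in HFC. Without week 6 the differences were -0.80 for Per2 and -0.42 for Nr1d2. The HF20 arrays of weeks 6, 12 and 18 also had low levels of the immediate early genes (list median 0.99, 0.75 and -0.39, against 3.26 to 6.37 on the HFC arrays of weeks 3 to 18), and the part of this in the result was not tested. Of the other clock genes, Bhlhe40 (-1.52 ± 0.59), Wee1 (-1.28 ± 0.43) and Ciart (-1.15 ± 0.45) had an unadjusted p under 0.05 in HF20 and 0 of 18 passed.

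The same genes stood elsewhere at the other doses. The difference of Per2 from HFC was -0.56 ± 0.43 (SE) in HF5 and -0.03 ± 0.43 in HF75, and that of Nr1d2 -0.35 ± 0.38 and 0.18 ± 0.38. Dbp differed by -0.66 ± 0.50 in HF5, -0.83 ± 0.50 in HF20 and 0.29 ± 0.50 in HF75, and Arntl by 0.04 ± 0.62, 0.44 ± 0.62 and -0.54 ± 0.62. Per1 was lower than in HFC at 6 of 6 weeks in HF75, by -0.65 ± 0.42 (interval -1.51 to 0.21). The median difference over the 10 members was -0.05 in HF5, -0.36 in HF20 and -0.13 in HF75, beside -0.03, -0.07 and -0.01 over all probes.

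Change over the experiment was read by setting weeks 3 to 18 (late) against the earlier arrays (early) within each control diet. Within HFC, Dbp was 1.89, 2.93, 3.60 and 3.79 on the arrays of days 6, 10 and 14 and week 0, and all 6 later arrays were above these, from 4.11 to 5.35. The difference was 1.73 ± 0.41 (SE; interval 0.84 to 2.63, adjusted p = 0.21). Arntl was -0.24, -1.05, -1.31 and -0.81 on the same 4 arrays and -3.01 to -0.66 later, a difference of -1.18 ± 0.44 (interval -2.15 to -0.21, adjusted p = 0.24), and its groups overlapped at the HFC week 12 array.

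Per2 was -3.20, -2.98, -1.29 and -0.88 early and averaged -0.25 ± 0.49 (SD, n = 6) late, a difference of 1.83 ± 0.49 (SE, adjusted p = 0.21). The early Per2 value of week 0 lay above the late value of week 6 (-0.96). Nr1d2 was -1.20, -1.12, 0.48 and 1.45 early and averaged 1.58 ± 0.29 (SD, n = 6) late, a difference of 1.68 ± 0.49 (SE, adjusted p = 0.22), and its week 0 value lay among the late ones (1.24 to 1.96). Per1 differed by 1.36 ± 0.43 (SE, adjusted p = 0.22). By limma 0 of 10 members passed (0% of 29397 probes), and 5 of 10 had an unadjusted p under 0.05, where 17.3% of probes did. Of the other clock genes 0 of 18 passed and 8 had an unadjusted p under 0.05, all higher late, among them Ciart (2.64 ± 0.72), Bhlhe40 (2.44 ± 0.72) and Hlf (0.85 ± 0.30).

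The low early values lay mostly on days 6 and 10, where the immediate early genes (Fos, Egr1, Junb and others, 7 of 7 on the array) had list medians of -0.21 and -0.05 in HFC, against 4.37 to 6.37 on the other HFC arrays except week 3 (3.26). Without the arrays of days 6 and 10, 1 member had an unadjusted p under 0.05, Dbp (1.09), and the differences were 0.83 for Per2, 0.62 for Nr1d2, 0.54 for Per1 and -0.97 for Arntl. Without week 0, Per2, Nr1d2 and Dbp passed (adjusted p 0.033 to 0.043), where 2.88% of all probes did. With limma's array weights 6 members passed, where 27.3% of all probes did: Arntl lower, and Per1, Per2, Nr1d1, Nr1d2 and Dbp higher, late. Early and late arrays were scanned on different dates, so period and scan date cannot be told apart.

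Within LFC, 0 of 9 tested members passed for late against early, where 0.490% of 30418 probes did, and 0 of 9 had an unadjusted p under 0.05 (5.52% of probes). Dbp differed by -0.24 ± 0.48 (SE; interval -1.29 to 0.80) and Arntl by 0.05 ± 0.43 (interval -0.89 to 0.99). Per2 differed by 1.00 ± 0.59 (interval -0.30 to 2.30). Of the other clock genes 0 of 18 passed, and Ciart (2.07 ± 0.70) was among those with an unadjusted p under 0.05.

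Whether the diet difference itself changed between the periods was tested as an interaction over 20 arrays. By limma 0 of 9 tested members passed (0% of 29168 probes), and 3 had an unadjusted p under 0.05 (5.14% of probes): Dbp (1.94 ± 0.61, SE), Nr1d2 (1.65 ± 0.55) and Nr1d1 (2.08 ± 0.85), each with an adjusted p of 0.84. HFC minus LFC for Dbp was -1.77, -0.79, -0.98 and -0.74 at days 6, 10 and 14 and week 0. It was 2.68, 0.70, 1.17, -1.03, 1.13 and 0.56 at weeks 3, 6, 9, 12, 15 and 18. The exceptions in size and sign, weeks 3 and 12, hold the arrays that stood apart, and without them the interaction for Dbp was 1.96 (adjusted p = 0.58). Without the arrays of days 6 and 10, 0 members had an unadjusted p under 0.05, and the interaction was 1.73 for Dbp, 1.24 for Nr1d2 and 0.61 for Nr1d1. Of the other clock genes 0 of 18 passed.

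**Figure D5:**
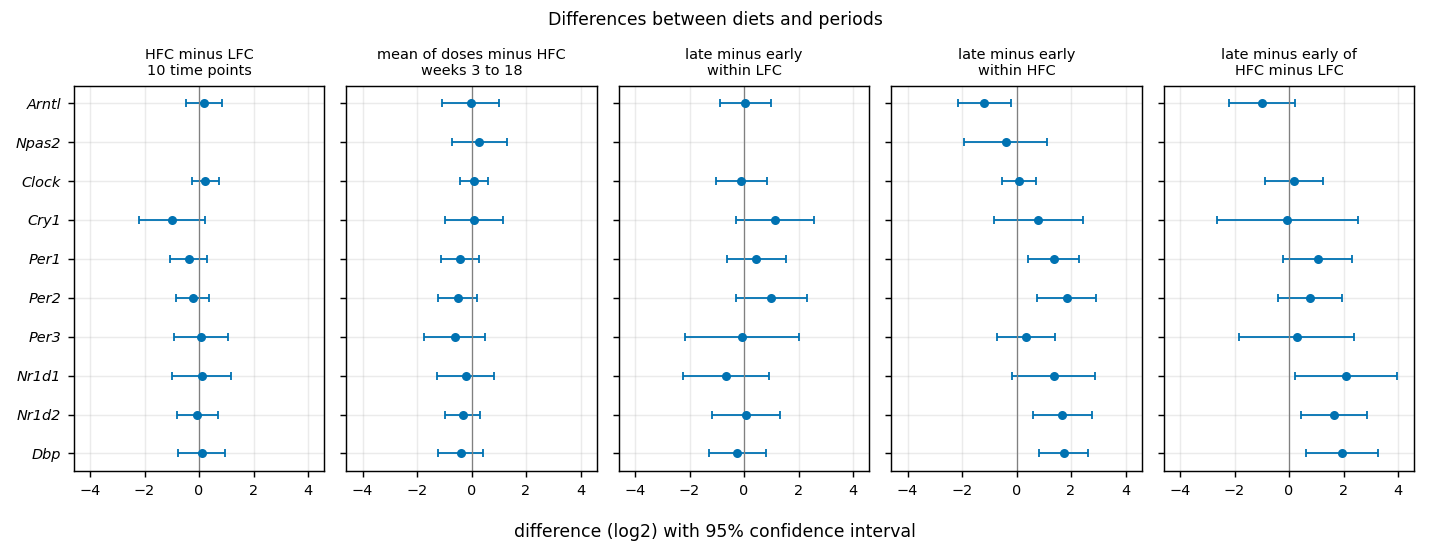
Differences in normalised log2 signal for each clock gene in 5 comparisons, with 95% confidence intervals from limma, zero marked by a line. A gene with no point was not tested in that comparison (Npas2). Intervals of Dbp and Nr1d2 lie above 0 for late minus early within HFC (1.73 and 1.68) and for the interaction (1.94 and 1.65), and no difference passed an adjusted p of 0.05.

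Per1 did not run with Arntl over the 37 arrays (r = -0.05). Besides the clock, Per1 is known to respond within the hour to signals through cAMP and to glucocorticoids, so 7 marker lists and the share of spots above background were set against Per1, Arntl and Dbp over the 37 arrays. These 24 relations were chosen after the data were seen. Per1 correlated with the median of the glucocorticoid targets (Fkbp5, Tsc22d3, Zbtb16, Sgk1, Mt1 and Mt2; r = 0.74, rho = 0.65) and of the immediate early genes (r = 0.72, rho = 0.64), each with an adjusted permutation p of 0.00012. Within time points r was 0.64 and 0.69, and without the 2 arrays farthest from the Per1 median 0.68 and 0.68. Per1 also correlated with the adipocyte list (r = -0.46, rho = -0.43, adjusted permutation p = 0.031) and with the 2 dim subcutaneous markers (r = 0.45, rho = 0.50, adjusted permutation p = 0.038).

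None of the 16 relations of Arntl and Dbp passed the adjustment. For Dbp, r was 0.39 with the glucocorticoid targets (rho 0.31, adjusted permutation p = 0.083) and 0.25 with the immediate early genes (rho 0.33, adjusted permutation p = 0.41). For Arntl, r was -0.29 with the glucocorticoid targets and -0.13 with the immediate early genes. Its largest r was with the adipocyte list (-0.34, rho -0.36, adjusted permutation p = 0.16), of the same sign as that of Per1. Whether r differed between Per1, Arntl and Dbp was not tested. With the epididymis markers (Crisp1, Lcn5 and others), whose median ranged from -8.51 to 3.30, r was -0.13 for Dbp and 0.13 for Arntl. The share of spots above background had an r of -0.15 with Dbp and 0.08 with Arntl.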

How the data were processed

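Epididymal adipose RNA of mice on 5 diets was measured on 39 arrays. The authors' deposited scanner files hold intensity values, background-subtracted by Agilent Feature Extraction (version 9.1 in the submitters' processing notes, 10.5.1.1 in the file headers), with annotation on build mm9 and no normalisation between arrays. The authors' deposited table holds log2 values normalised in GeneSpring and expressed against the matching LFC array (r of 0.992 to 0.999 with the signals here over 23 arrays), and served as an alternative.

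Normalised levels are log2 of the processed signal less the array's 75th percentile. Outlier spots were left out and spots averaged, which gave 40628 probes from 43803 spots. Two-sided moderated tests followed limma (3.58.1, under R 4.3.3), adjusted by Benjamini-Hochberg over all tested probes. Tested probes were above background on 10 of 20, 6 of 30, 5 of 11 or 5 of 10 arrays or more. The fit was tested on simulated data. Correlations used 100000 permutations in Python. The likeness search was limited to names detected above background on 30 or more of 37 arrays.

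All 10 members were named. The members, gene lists and tests were chosen with earlier results of these data known. Values of some genes on the lists are not reported here. Alternatives covered background correction, scaling, filters, outlier spots, marked arrays, array weights, batch, each time point left out, second probes and the deposited table.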

Additional observations from a re-analysis of the deposited data

Results flagged for a closer look

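Of 44 sets of values tested for a far array (10 genes and the index in HFC, HF5, HF20 and HF75), 1 had one, where chance flags about 1 in 20. It was Nr1d2 in HF20: the week 6 array had -1.25, while the nearest of the other 5 arrays had 0.65, a gap of 67.6% of the range. On this array Dbp was 2.59, Arntl 0.20, Per2 -2.65 and Ciart -5.62, and the median of the immediate early genes was 0.99.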

How the results depend on the processing

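The count of members passing stayed 0 under every alternative run for HFC against LFC (both spans), HF5, HF20, HF75 and the mean of doses against HFC, late against early within LFC, and the interaction. Among time points of weeks 3 to 18 the count was 0, and it was 2 with probes above background on every array (16.9% of all probes), 3 when the 2 arrays that stood apart were left out (23.1%) and 7 with array weights (74.6%). Leaving out 1 time point gave 0 to 3 (3 without week 3, where 18.4% of probes passed). For late against early within HFC the count was 0, and it was 6 with array weights (27.3% of all probes) and 0 to 3 with 1 time point left out (3 without week 0, 2.88%). For Arntl against the other 9 members the count was 4, and it was 3 with quantile normalisation, 3 with median scaling, 5 with normexp, 1 for deviations from time point means, 0 within LFC, 1 within HFC and 2 (Dbp and Per3) without the 5 week 6 arrays, an alternative added after the data were seen. The relation of Arntl with Per3 had an r of 0.30 with normexp. The share of the index variance between time points was 39.2% to 51.3%. The causes of these changes were not tested. Without the time point block, the counts for diets, doses and the interaction stayed 0. The hour of sampling is not given in the sources used here, 1 array stood for each diet and time point, and Npas2 was above background on 15 of 39 arrays, which limits what can be read.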
